A study of Mus musculus with 6 samples.

Results

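The interleukin-1 family was examined through 10 genes in whole kidneys from C57Bl/6 mice, 28 days after ischaemia-reperfusion injury. They are the agonists Il1a, Il1b, Il18 and Il33, the antagonist Il1rn, the receptors Il1r1, Il1r2, Il1rap and Il1rl1, and the inflammasome sensor Nlrp3. They were found by gene name in a table of raw read counts for 35275 genes, and each of the 10 names matched 1 row. Renal blood flow had been stopped for 20 min in 3 kidneys (mild injury) and for 35 min in 3 kidneys (severe injury). All mice carried the wild-type genotype, and an uninjured group was not analysed here. The sources used here do not give age, sex, or whether 1 or both kidneys were clamped. The libraries are called mild 7, 8 and 9 and severe 13, 14 and 15 after the table's column names, and no label ties each to its own mouse. The p-values therefore cover the spread among these libraries, which may be technical.

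Interleukin-1 alpha and beta bind the receptor encoded by Il1r1, which pairs with the accessory protein encoded by Il1rap and signals through MyD88 to NF-kappa-B. The product of Il1rn occupies the same receptor without starting a signal, and the product of Il1r2 captures the agonists as a decoy that lacks a signalling domain. Interleukin-1 beta and interleukin-18 are made as precursors that caspase-1 cuts in inflammasomes such as that built on NLRP3, whereas interleukin-33 is a nuclear alarmin released from damaged cells, bound by the receptor ST2 that Il1rl1 encodes. Transcript levels therefore do not measure the active cytokines. Gene counts also do not part the secreted from the intracellular antagonist, or soluble from membrane ST2, which share a gene.

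The antagonist and interleukin-33 had the largest log2 fold changes among the 8 members with enough counts for a test, and their regulatory starts are shown for that reason, together with that of the agonist Il1b. The windows are the 250 bases before an annotated RefSeq start (GRCm38.p6), written 5′ to 3′ on the gene's strand. Il1rn has more than 1 annotated start, and the gene counts cover all of them. Its upstream start has the window chr2:24336610-24336859 and a downstream start chr2:24345041-24345290, both on the plus strand. The Il1b window is chr2:129371140-129371389 on the minus strand, and the Il33 window, that of its upstream start, is chr19:29924863-29925112 on the plus strand. Capitals mark a match to the AP-1 motif.
Il1rn, upstream start: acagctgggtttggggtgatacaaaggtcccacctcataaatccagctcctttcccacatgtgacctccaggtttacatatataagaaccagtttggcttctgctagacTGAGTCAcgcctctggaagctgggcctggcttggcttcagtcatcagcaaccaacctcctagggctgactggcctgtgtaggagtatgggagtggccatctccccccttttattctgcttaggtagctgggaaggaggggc
Il1rn, downstream start: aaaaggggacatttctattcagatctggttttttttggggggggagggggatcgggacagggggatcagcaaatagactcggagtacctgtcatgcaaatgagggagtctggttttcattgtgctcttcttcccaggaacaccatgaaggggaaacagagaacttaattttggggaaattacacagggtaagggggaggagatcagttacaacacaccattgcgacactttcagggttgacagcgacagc
Il1b: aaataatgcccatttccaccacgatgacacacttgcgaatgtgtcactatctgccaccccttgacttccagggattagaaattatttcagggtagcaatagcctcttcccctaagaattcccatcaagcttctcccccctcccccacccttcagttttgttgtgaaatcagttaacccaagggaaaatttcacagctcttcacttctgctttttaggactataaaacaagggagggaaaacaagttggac
Il33: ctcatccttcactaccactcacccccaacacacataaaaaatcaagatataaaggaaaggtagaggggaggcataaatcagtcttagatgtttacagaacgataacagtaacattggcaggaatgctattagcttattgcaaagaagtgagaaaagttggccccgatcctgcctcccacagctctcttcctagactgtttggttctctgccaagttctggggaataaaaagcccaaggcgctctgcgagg

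These windows were searched on both strands for AP-1 (TGANTCA), for a PU.1 core (GAGGAAG) and for the NF-kappa-B consensus. The match was an AP-1 match that starts 141 bases before the upstream Il1rn start. Over 16 windows of the 10 members, NF-kappa-B matches lay in a window of Il1r1 and a window of Nlrp3, AP-1 matches in Il1rn and Il1a, and PU.1 matches in Il1a and Nlrp3. Among all 32851 windows of the same length, 3.90% held the NF-kappa-B match, 6.75% the AP-1 match and 10.6% the PU.1 match. A match describes letters in the window and is not a measured site.

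The libraries held 15240491 to 17730967 gene counts. Levels are given as CPM, which are counts scaled to library size with TMM factors, and 1 read was worth 0.0563 to 0.0689 CPM. Severe library 14 stood apart: each of the 10 members had its highest severe value there. In the same library 10 proximal tubule markers summed to 7729 CPM, against 12822 and 14442 CPM in the other severe libraries and 15851 to 17160 CPM in mild ones. Markers of macrophages and fibroblasts moved the opposite way and are given beside the members below. In whole-kidney RNA, fewer cells of a type and less RNA per cell cannot be told apart.

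Of the 10 members, 8 had enough counts for a test (filterByExpr of edgeR), and Il1a and Il1r2 did not. At a Benjamini-Hochberg adjusted p under 0.05 with edgeR's quasi-likelihood test, 0 of the 8 passed, where 0.0134% of all 14883 tested genes did (2 genes). With an unadjusted p under 0.05, 5 of the 8 were higher in severe kidneys, against 15.8% of all tested genes. In 4 of the 8 every severe library lay above every mild library, against 17.9% of all tested genes. DESeq2, run as an alternative, passed 3 members, all higher (Il33, Il1rn and Il1r1), against 7.02% of the genes for which it gave an adjusted p, and limma-voom passed 0. The median log2 fold change was 0.85 over the 8 members and 0.000194 over all tested genes. The members were chosen with earlier results known, so these counts describe them and do not set them apart. Fits that left out 1 library varied widely in how many genes they passed. A pass in 1 of those fits does not set a member apart either.

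**Figure D1:**
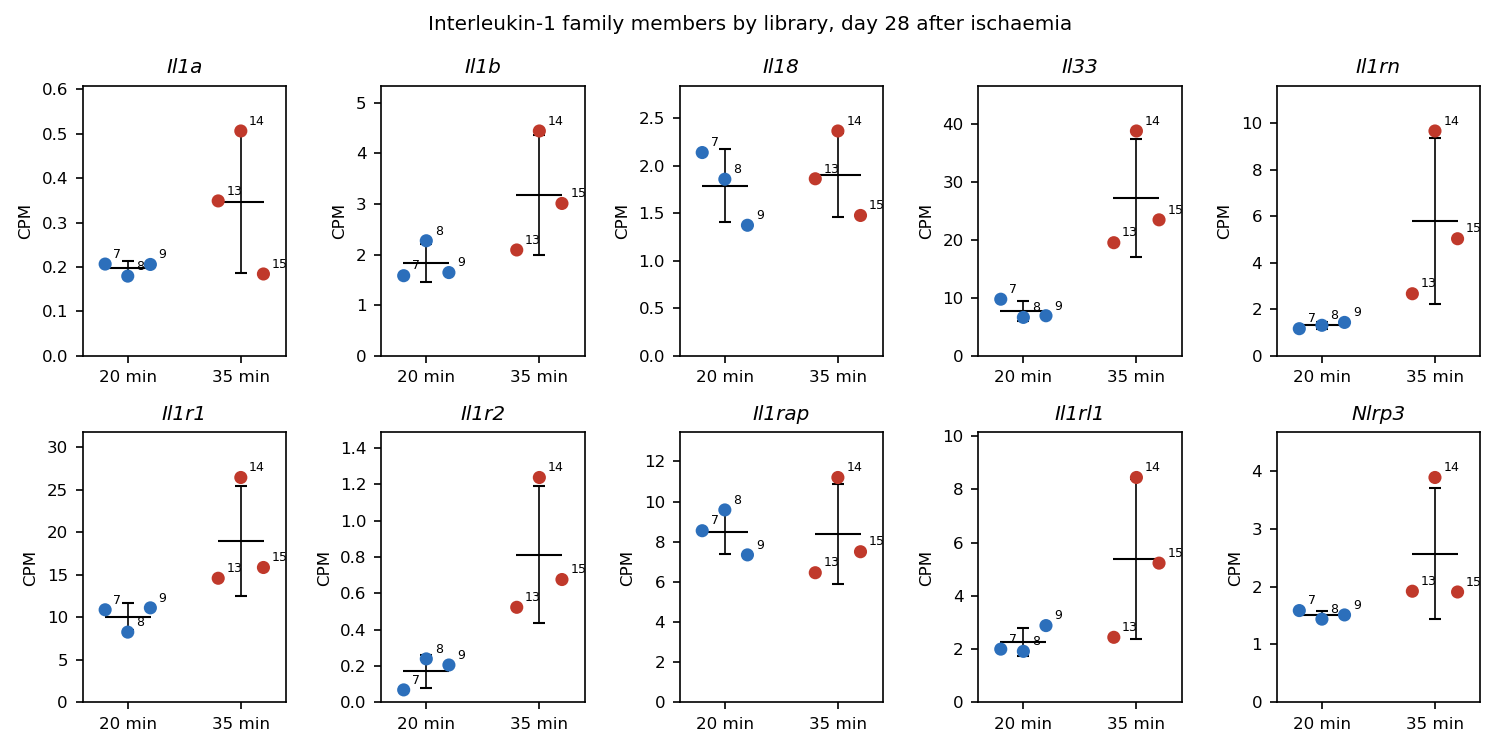
CPM of each of the 10 members (vertical axis, from 0, its own scale per panel) in mild (20 min, blue) and severe (35 min, red) kidneys; points are libraries with their numbers, and bars are the mean and SD of 3. Severe library 14 is the highest severe point in every panel, and the groups do not overlap for Il33, Il1rn, Il1r1, Il1r2 and Nlrp3.

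Among the agonists, Il33 showed the clearest separation. It stood at 9.79, 6.65 and 6.93 CPM in mild libraries 7, 8 and 9 and at 19.5, 38.8 and 23.5 CPM in severe libraries 13, 14 and 15. Every severe library lay well above every mild one, library 14 the most. The log2 fold change was 1.81 ± 0.28 (SE, n = 3 each; edgeR adjusted p = 0.0867; DESeq2 adjusted p = 4.64e-07). Without severe library 14 it was 1.47 and passed (edgeR adjusted p = 0.00251), and without library 13 it was 2.01 and passed (adjusted p = 0.00379). Without any 1 mild library or severe library 15 it did not pass (adjusted p from 0.209 to 0.319). Il33 (ENSMUSG00000024810) lies on the plus strand of chromosome 19 from 29925114 to 29960718 (mm10, as in the table).

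Il1b, the main secreted agonist of myeloid cells, differed less. Its raw counts were 23, 38 and 24 in the mild and 36, 79 and 49 in the severe libraries, or 1.84 ± 0.382 against 3.18 ± 1.19 CPM (mean ± SD, n = 3 each). Severe library 13, at 2.09 CPM, lay below mild library 8, at 2.28 CPM, so the groups overlapped. The log2 fold change was 0.79 ± 0.32 (edgeR adjusted p = 0.198), 0.46 without severe library 14 (adjusted p = 0.394) and 1.02 without library 13, where it passed (adjusted p = 0.0386). The gene (ENSMUSG00000027398, minus strand of chromosome 2, 129364570 to 129371139) overlaps the antisense gene Il1bos, which had 19 counts over the mild and 21 over the severe libraries. The sources used here do not give the strand setting of the counting, so reads of the overlap cannot be told apart.

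Il1a was close to the detection limit. It had 3 counts in each mild library and 6, 9 and 3 counts in severe libraries 13, 14 and 15. The ratio of the summed counts, 18 to 9, was 1.79 after scaling for depth, with a 95% counting interval from 0.762 to 4.52 (exact, counting error only), so a difference was not detectable at this depth. The overlapping gene Gm14023 on the other strand had more counts than Il1a itself, 32 over the mild and 33 over the severe libraries.

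Il18, which tubular epithelium is known to make, showed little difference between the groups. Its counts were 31, 31 and 20 in the mild and 32, 42 and 24 in the severe libraries, or 1.79 ± 0.387 against 1.90 ± 0.445 CPM (mean ± SD, n = 3 each). The groups overlapped fully, and the fold change, 0.09 ± 0.28 on the log2 scale (edgeR adjusted p = 0.858), turned to -0.0988 without severe library 14 and to -0.0586 without mild library 9. The table's model of Il18 is 702 bases long and begins 20446 bases downstream of the gene's start in GENCODE M21, so reads from the upstream exons are not in these counts.

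The antagonist Il1rn had the largest fold change of the tested members. Its counts were 17, 22 and 21 in mild libraries 7, 8 and 9 and 46, 172 and 82 in severe libraries 13, 14 and 15, which is 1.17, 1.32 and 1.44 CPM against 2.67, 9.68 and 5.04 CPM. Every severe library lay above every mild one, and the severe values spread widely (5.80 ± 3.56 CPM, against 1.31 ± 0.135 CPM in mild libraries). The log2 fold change was 2.14 ± 0.47 (SE, n = 3 each; edgeR adjusted p = 0.0867; DESeq2 adjusted p = 0.000512). It was 1.55 without severe library 14 (edgeR adjusted p = 0.0289) and 2.496 without library 13 (adjusted p = 0.00382). It did not pass without severe library 15 or any 1 mild library (adjusted p from 0.209 to 0.319). The adjusted values 0.0867 and 0.319 are shared with Il33 through ties in the Benjamini-Hochberg adjustment and do not rank the 2 genes. Of all tested genes, 0.356% had a larger log2 fold change than Il1rn and 0.773% a larger one than Il33. Il1rn (ENSMUSG00000026981) lies on the plus strand of chromosome 2 from 24336853 to 24351494.

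The antagonist was then set against the agonists within each library, which removes the scaling between libraries. Mild libraries 7, 8 and 9 held 0.739, 0.579 and 0.875 reads of Il1rn for each read of Il1b, and severe libraries 13, 14 and 15 held 1.28, 2.18 and 1.67. Il1b reads were the more numerous in each mild library and Il1rn reads in each severe library, without scaling for gene length. On the log2 CPM scale (prior count of 2) Il1rn minus Il1b went from -0.44 ± 0.28 to 0.72 ± 0.38, a difference of 1.16 (exact two-sided permutation test, p = 0.1, and 0.15 after Benjamini-Hochberg adjustment over 6 such comparisons). Such a test cannot go below 0.1 with 3 libraries against 3.

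Against Il1a, reads of Il1rn were 5.67 to 7.33 times as many in the mild libraries and 7.67, 19.1 and 27.3 times as many in severe libraries 13, 14 and 15. The log2 difference between the groups was 1.38 (exact permutation p = 0.1, adjusted 0.15), but it rests on the 3 to 9 counts of Il1a in each library. Against the summed reads of both agonists it was 1.15 (exact permutation p = 0.1, adjusted 0.15). Per kilobase of gene length, Il1b exceeded Il1rn in mild kidneys (1.35 ± 0.282 against 0.530 ± 0.0545 CPM per kilobase). In severe libraries 13 and 15 Il1b was again the higher, at 1.54 and 2.22 against 1.08 and 2.04 for Il1rn. Only in severe library 14 was Il1rn the higher, at 3.91 against 3.28. The severe means were 2.35 ± 0.874 for Il1b and 2.34 ± 1.44 for Il1rn. Leaving out each library in turn moved the difference of Il1rn minus Il1b between 0.97 and 1.35, the lowest without severe library 14.

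**Figure D2:**
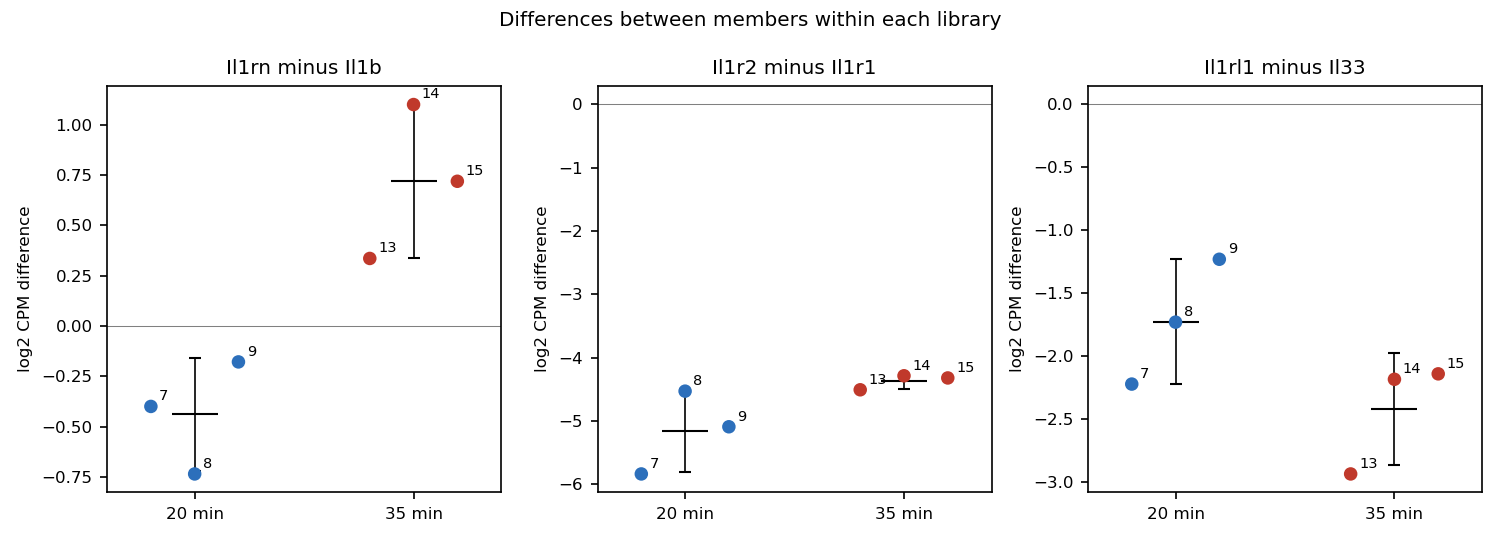
Differences in log2 CPM between members within each library (vertical axis) for Il1rn minus Il1b, Il1r2 minus Il1r1 and Il1rl1 minus Il33; points are libraries with their numbers, and bars are the mean and SD of 3. Il1rn minus Il1b is below 0 in each mild and above 0 in each severe library, whereas Il1rl1 minus Il33 overlaps between the groups. Values are not scaled for gene length, so the sign does not say which gene was higher per kilobase.

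Among the receptors, the signalling chain Il1r1 stood at 10.9, 8.26 and 11.1 CPM in mild libraries 7, 8 and 9 and at 14.6, 26.4 and 15.9 CPM in severe libraries 13, 14 and 15. The groups did not overlap, with libraries 13 and 15 close together and library 14 well above. The log2 fold change was 0.91 ± 0.24 (edgeR adjusted p = 0.107; DESeq2 adjusted p = 0.0138) and 0.60 without severe library 14 (edgeR adjusted p = 0.0502). Il1rap, the shared accessory chain of the receptors for interleukin-1 and interleukin-33, showed no such separation. Its counts were 124, 160 and 107 in mild libraries 7, 8 and 9 and 111, 199 and 122 in severe libraries 13, 14 and 15. The lowest CPM of all was in severe library 13 and the highest in severe library 14. On the log2 scale the fold change was -0.0183 ± 0.22 (edgeR adjusted p = 0.966). The sign of that value changed with the libraries included and with the scaling, between -0.29 and 0.17.

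The decoy receptor Il1r2 had few reads. Its counts were 1, 4 and 3 in mild libraries 7, 8 and 9 and 9, 22 and 11 in severe libraries 13, 14 and 15. Every severe count was above every mild one. The ratio of the sums, 42 to 8 counts, was 4.69 after scaling for depth. Its 95% counting interval, from 2.18 to 11.6, leaves out the spread between libraries. Without a filter on low counts edgeR gave a log2 fold change of 2.17 with an adjusted p of 0.0931. Il1r2 also had enough counts for the test in 4 of the fits that left out 1 library, through its severe counts alone. A pass there is therefore no support for a difference. Without severe library 13 the log2 fold change was 2.42 (edgeR adjusted p = 0.0255). Without 1 mild library the adjusted p was 0.270 to 0.319. Within libraries, Il1r2 minus Il1r1 differed between the groups by 0.78 on the log2 scale (exact permutation p = 0.1, adjusted 0.15), and by 0.34 (exact permutation p = 0.4) with a prior count of 5. The table's model of Il1r2 begins 10689 bases downstream of its start in GENCODE M21.

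Il1rl1, which encodes the interleukin-33 receptor ST2, had 29, 32 and 42 counts in mild libraries 7, 8 and 9 and 42, 150 and 85 counts in severe libraries 13, 14 and 15. That is 2.27 ± 0.536 against 5.37 ± 3.00 CPM (mean ± SD, n = 3 each). Severe library 13, at 2.44 CPM, lay within the mild range, unlike its Il33 level. The log2 fold change was 1.248 ± 0.43 (edgeR adjusted p = 0.155), 0.76 without severe library 14 (adjusted p = 0.224) and 1.61 without library 13, where it passed (adjusted p = 0.00902). Receptor minus ligand, Il1rl1 minus Il33, differed by -0.69 on the log2 scale (exact permutation p = 0.3, adjusted 0.36), and the groups overlapped.

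Nlrp3 was low in both groups, with 23, 24 and 22 counts in the mild and 33, 69 and 31 counts in the severe libraries. Severe libraries 13 and 15, at 1.92 and 1.91 CPM, lay just above the highest mild library at 1.59 CPM. Its log2 fold change was 0.77 ± 0.34 (edgeR adjusted p = 0.214) and 0.34 without severe library 14 (adjusted p = 0.535). Nlrp3 (ENSMUSG00000032691) lies on the plus strand of chromosome 11 from 59541568 to 59566956.

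**Figure D3:**
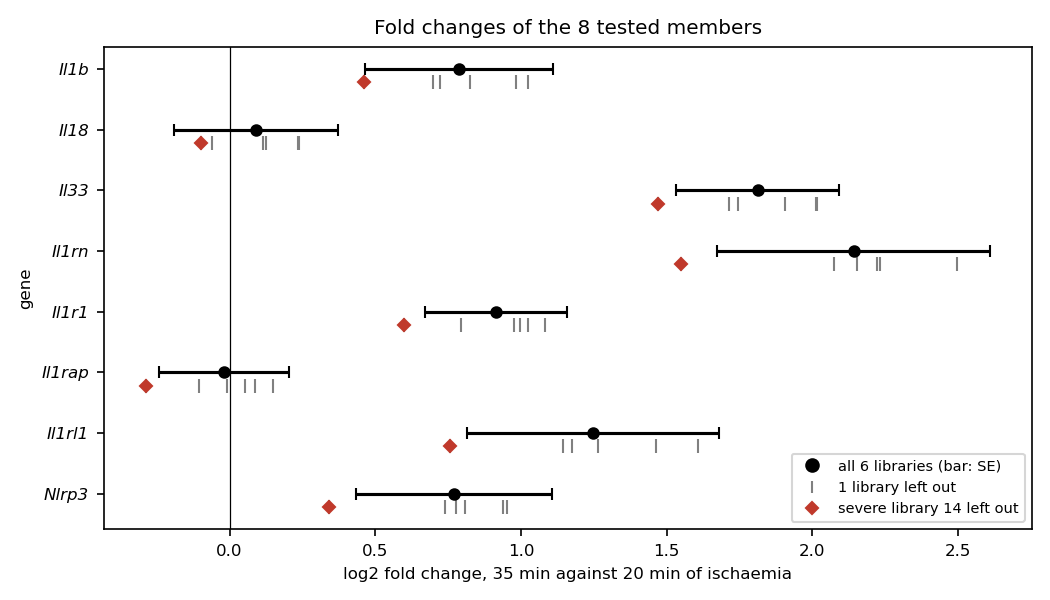
Log2 fold change of the 8 tested members, 35 min against 20 min of ischaemia (horizontal axis); black points and bars are the value and SE over 6 libraries, grey ticks the values with 1 library left out, and red diamonds those without severe library 14. Leaving out library 14 gives the lowest value for each of the 8 genes, and Il18 and Il1rap lie on both sides of 0.

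Ordered by level per kilobase of gene length in mild kidneys, Il33 came first at 3.06 ± 0.683 CPM per kilobase, followed by Il18 at 2.55 ± 0.551, Il1r1 at 2.09 ± 0.328, Il1rap at 1.88 ± 0.248 and Il1b at 1.35 ± 0.282. Each of the leading 4 differed from its neighbour by less than the larger of their SDs. Il1rn, Il1rl1 and Nlrp3 followed at 0.530, 0.427 and 0.376, and Il1r2 and Il1a at 0.128 and 0.10. In severe kidneys Il33 stood at 10.7 CPM per kilobase (SD 4.004), above Il1r1 at 3.93 ± 1.35. Il18, Il1b, Il1rn and Il1rap followed between 2.71 and 1.85 with overlapping spreads. The rank of Il18 rests on its short gene model.

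Other members of the wider family were read from fixed lists. Il1f6, which encodes the epithelial agonist interleukin-36 alpha, had 5, 5 and 18 counts in mild and 16, 91 and 44 counts in severe libraries, and mild library 9 exceeded severe library 13. Its log2 fold change was 2.23 ± 0.72 (edgeR adjusted p = 0.140). Il1f6 met the count filter through its severe counts, so the test is no support for a difference. Its receptor gene Il1rl2 had 12, 16 and 26 counts in mild and 27, 85 and 50 counts in severe libraries. Here too mild library 9 exceeded severe library 13 in CPM, and the log2 fold change was 1.40 ± 0.47 (edgeR adjusted p = 0.146). The interleukin-18 receptor genes Il18r1 and Il18rap had log2 fold changes of 1.19 ± 0.44 and 1.14 ± 0.29 (edgeR adjusted p = 0.171 and 0.103), and Il18rap did not overlap between the groups. Without severe library 14 Il18r1 stood at 0.60 (adjusted p = 0.293). Il18bp, which encodes the soluble antagonist of interleukin-18, averaged 5.82 ± 0.767 CPM over mild and 5.79 ± 0.794 CPM over severe kidneys. Il18bp minus Il18 within libraries differed by -0.0874 (exact permutation p = 0.5, adjusted 0.5), and the sign of that value changed with the libraries included.

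Sigirr, the inhibitory receptor of the family, went the other way. Mild kidneys averaged 104 ± 1.65 CPM, and the values were 98.1, 64.1 and 86.3 CPM in severe libraries 13, 14 and 15. Each severe value was below each mild one, and the log2 fold change was -0.33 ± 0.14 (edgeR adjusted p = 0.215). It was -0.17 without severe library 14 and -0.18 with library totals as the scaling, and it passed at -0.46 without severe library 13 (adjusted p = 0.0336). Tubule markers had the same order over the severe libraries, and their part in the result was not tested. The receptor genes Il1r2, Il1r1, Il1rl2, Il1rl1, Il18r1 and Il18rap lie on the plus strand of chromosome 1 between 40084768 and 40551705. The 5 of them that were tested had log2 fold changes between 0.91 and 1.40, and 0 passed over all genes.

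In the list of inflammasome and processing genes, 0 of 18 tested genes passed with edgeR, 12 were higher and 2 lower at an unadjusted p under 0.05, and 4 passed with DESeq2, all higher. Over all tested genes 15.8% were higher and 7.89% lower at that p, and 7.02% passed higher with DESeq2; the same shares apply to the lists that follow. The median log2 fold change was 0.60. Those with the smallest p were Aim2, a sensor of cytosolic DNA, at 1.03 ± 0.24 (edgeR adjusted p = 0.0915), the ATP-gated channel P2rx7 at 1.07 ± 0.28, the pore-forming Gsdmd at 0.79 ± 0.21 and the inflammatory caspase Casp4 at 1.35 ± 0.36. Casp4 was at 0.90 without severe library 14. Casp1, which cuts the precursors of Il1b and Il18, had 25, 13 and 26 counts in mild and 44, 67 and 47 counts in severe libraries, without overlap (log2 fold change 1.12 ± 0.34, adjusted p = 0.126). For the adaptor Pycard the fold change was 0.42 ± 0.16 on the log2 scale (edgeR adjusted p = 0.191), also without overlap. The 2 lower genes were Nlrp6, at 189 against 127 CPM, and Nlrc4. Their log2 fold changes were -0.57 ± 0.20 and -0.40 ± 0.16 (edgeR adjusted p = 0.159 and 0.195), both without overlap. Casp1 and Pycard are named outside the rule by p, as parts of the complex with Nlrp3, and Nlrp6 and Nlrc4 as the lower genes.

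Receptor signalling genes differed little as a list. Of 33 tested, 0 passed with edgeR and 3 with DESeq2, 8 (against 15.8% of all tested genes) were higher and 2 (against 7.89%) lower at an unadjusted p under 0.05, and the median log2 fold change was 0.06. Irak3, which encodes an inhibitory kinase of the pathway, had 31, 37 and 24 counts in mild and 58, 117 and 84 counts in severe libraries. Its log2 fold change was 1.33 ± 0.29 (edgeR adjusted p = 0.0867). Nfkbia, the NF-kappa-B inhibitor that NF-kappa-B itself induces, stood at 0.70 ± 0.19, Nfkb2 at 0.70 ± 0.21 and the kinase Irak4 at 0.40 ± 0.14 on the log2 fold change scale. Irak4 was at 0.24 without severe library 14. The 2 lower genes were Chuk at -0.34 ± 0.13 and Ikbkg at -0.19 ± 0.07 (edgeR adjusted p = 0.172 and 0.183), both without overlap. The adaptor Myd88, named for its place after the receptor, averaged 17.1 ± 2.16 against 20.5 ± 2.87 CPM with overlapping groups.

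Genes that interleukin-1 is known to induce in many cells, and that other signals induce as well, had a median log2 fold change of 1.21. Of 20 tested, 0 passed with edgeR and 11 with DESeq2, and 14 were higher and 0 lower at an unadjusted p under 0.05. The 14 include Ccl20 and Cxcl5, which met the count filter through their severe counts alone. Mmp9, a gelatinase, averaged 1.64 ± 0.0467 CPM over mild kidneys and was at 3.37, 7.82 and 4.18 CPM in severe libraries 13, 14 and 15 (log2 fold change 1.64 ± 0.34, edgeR adjusted p = 0.0867). On the log2 fold change scale the RNase gene Zc3h12a was at 0.65 ± 0.16, the metalloreductase gene Steap4 at 0.92 ± 0.23 and Lcn2 at 2.07 ± 0.52. Lcn2 was 1.24 without severe library 14, and the median of the list was 0.63 without that library. The cytokine Il6 had 1, 1 and 2 counts in mild and 0, 14 and 1 counts in severe libraries, with nearly all severe reads in library 14. It is named here after its values were seen.

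In the list of type 2 genes linked to interleukin-33, 10 of 20 had enough counts, 0 passed with edgeR and 3 with DESeq2, and 4 were higher and 0 lower at an unadjusted p under 0.05. The median log2 fold change was 0.38. Arg1, the arginase gene of alternatively activated macrophages, had 1, 2 and 0 counts in mild and 36, 97 and 14 counts in severe libraries (edgeR adjusted p = 0.0867). The chemokine genes Ccl22 and Ccl17 stood at log2 fold changes of 1.54 ± 0.40 and 2.03 ± 0.53, and the receptor chain Il4ra at 0.46 ± 0.14 (edgeR adjusted p = 0.122). Arg1 and Ccl17, among the 4 higher genes, met the count filter through their severe counts alone. Their calls are therefore no support for a difference. The cytokines Il5 and Il13 had 3 and 0 counts over the mild libraries and 1 and 1 over the severe ones, too few for any comparison. Both are named after their values were seen.

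**Figure D4:**
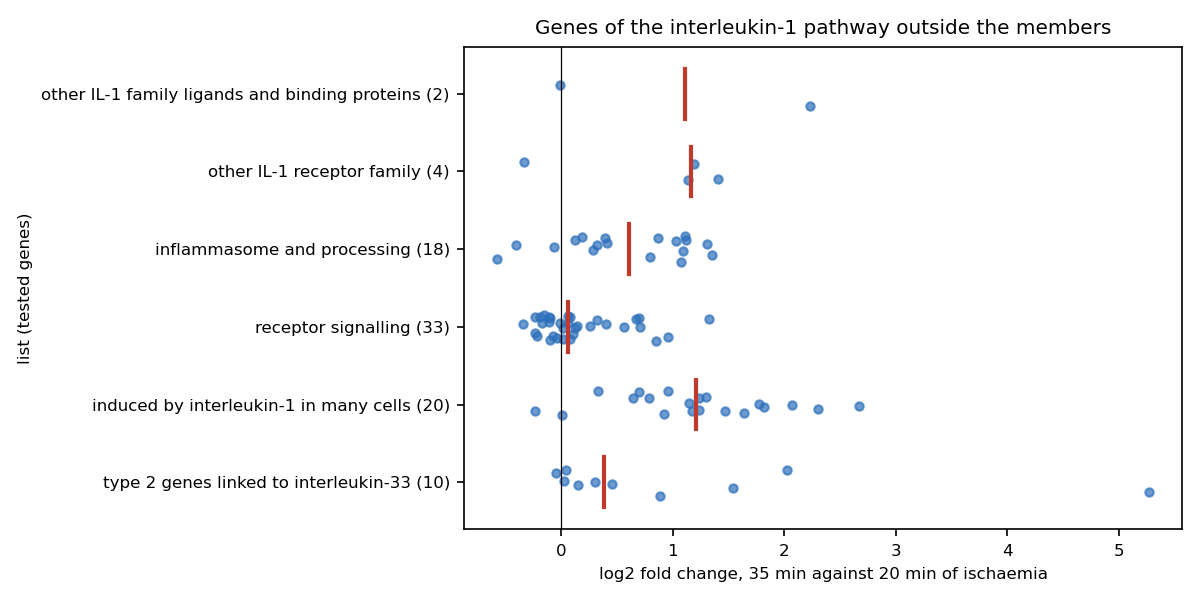
Log2 fold change, 35 min against 20 min of ischaemia (horizontal axis), of each tested gene in the 6 lists of pathway genes outside the members, with the number tested in parentheses; points are genes, red bars the medians, and the black line the median of all tested genes. Induced genes lie mostly to the right (median 1.21), and receptor signalling genes lie around 0 (median 0.06).

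Macrophage and fibroblast markers rose in the severe libraries, as most members did, while endothelial markers stayed near the mild level. The 18 macrophage and monocyte markers, all tested, summed to 426 to 500 CPM in mild and 739, 1399 and 907 CPM in severe libraries 13, 14 and 15. Relative to the mild mean that is 1.59, 3.01 and 1.96, against 2.04, 7.39 and 3.85 for Il1rn, 1.14, 2.42 and 1.64 for Il1b, and 2.51, 4.98 and 3.02 for Il33. In severe library 14 Lyz2 alone held 510 of the 1399 CPM. Each of the 18 had a positive log2 fold change, from 0.03 for Mertk to 1.73 for Lyz2. The 10 fibroblast and pericyte markers stood at 1.80, 6.02 and 3.15 relative to the mild mean. Most of that sum was collagen: in severe library 14 Col1a1 held 860 and Col3a1 1590 of 3151 CPM. Each of the 10 had a positive log2 fold change, from 1.14 to 2.21. The 10 endothelial markers stood at 1.15, 0.949 and 1.06. Of 14 neutrophil markers, 2 were tested and 3 (Mpo, Camp and Stfa2) had 0 counts in every library. The sum went from 17.8 to 22.9 CPM in mild to 34.5, 143 and 57.9 CPM in severe libraries, and most of it was Lcn2, which injured tubule also makes. Without Lcn2 the other 13 summed to 2.33 to 4.67 CPM in mild and 7.21, 13.1 and 7.32 CPM in severe libraries, without overlap. Csf3r held 4.01, 8.66 and 5.53 CPM of those severe sums. The list for mast cells and basophils, cells known for ST2, says little about them here. Kit and Hdc held 29.8 to 33.6 CPM of its sum in mild and 30.9 to 34.4 CPM in severe libraries. The other 8 genes summed to 0.479 to 0.892 CPM in mild and 0.799 to 1.05 CPM in severe libraries, with Tpsab1, Fcer1a and Mcpt8 at 0. The 12 T, NK and innate lymphoid markers, of which Thy1 is also on the fibroblast list, summed to 10.1 to 17.6 CPM in mild and 16.3, 60.8 and 32.5 CPM in severe libraries. Thy1 alone held 42.9 CPM of the sum in severe library 14. Without Thy1 the sums were 5.93 to 12.3 CPM in mild and 9.65, 17.9 and 16.2 CPM in severe libraries, which overlapped. The part of these cell types in the members' differences was not tested.

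**Figure D5:**
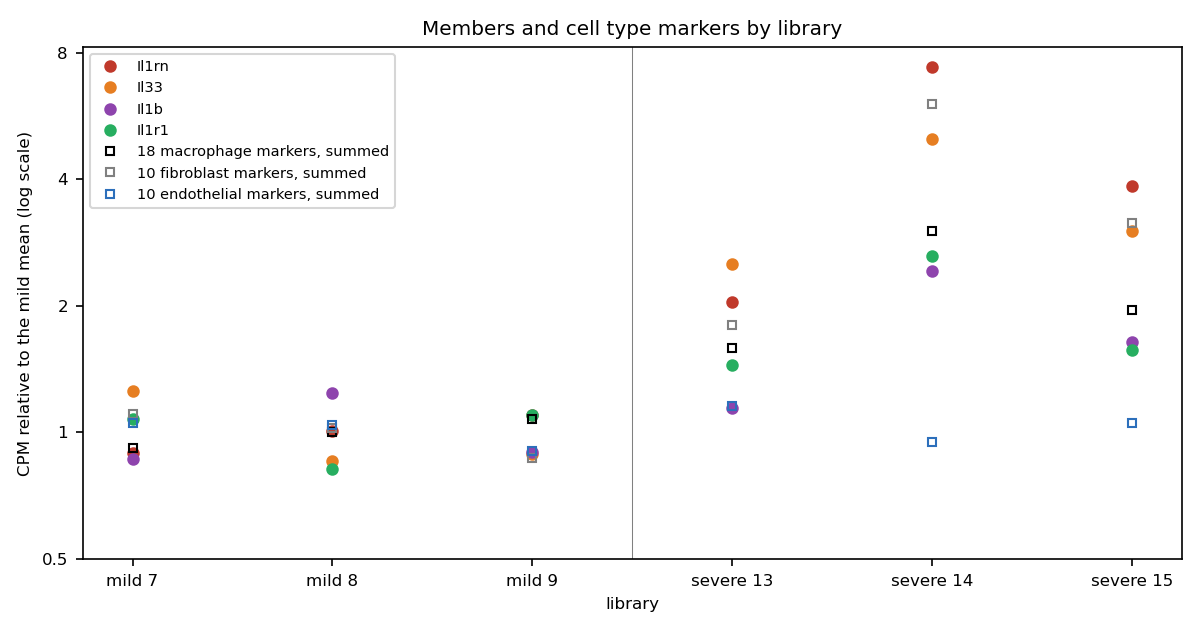
CPM of Il1rn, Il33, Il1b and Il1r1 (filled circles) and summed CPM of 3 marker lists (open squares) in each library (horizontal axis), relative to the mean of the mild libraries (vertical axis, log scale). In severe library 14 Il1rn stands at 7.39, the fibroblast markers at 6.02, the macrophage markers at 3.01 and Il1b at 2.42, while endothelial markers stay near 1.

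The genes whose profile over the 6 libraries was most like that of Il1rn were Col1a1, the fibrillar collagen gene, Kif1a and Gpr123. The root mean square difference between centred log2 CPM profiles was 0.133, 0.133 and 0.152. For Il1b they were Sept5, Nfam1 and Mmd, at 0.0631, 0.0735 and 0.0788. These are descriptions of 6 libraries that share severe library 14 as their highest value. Severe libraries 13, 14 and 15 held 265, 860 and 444 CPM of Col1a1, the same order as for Il1rn. Col1a1 is also on the list of fibroblast and pericyte markers.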

How the data were processed

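Poly-A RNA of whole kidneys was sequenced in 6 libraries. The authors deposited raw read counts per Ensembl gene, with gene lengths in bases; per the submitters' processing notes TopHat2 2.0.12, Bowtie2 2.2.3, HTSeq 0.6.1 and build mm10 were used, while the sources used here do not give the strand setting or counting mode. Columns were assigned to groups by their minutes of ischaemia, without pairing; 0 other columns of per-sample values were left out. Chi-square per degree of freedom between libraries of a group was 3.67 to 70.0, above the sampling noise for each pair, and each library was counted once. Gene totals are in the report; a count of 0 allows up to 3 counts, 0.169 to 0.207 CPM. The members and lists were chosen with earlier results of these data known.

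Counts were filtered with filterByExpr, scaled by TMM and tested across all genes with edgeR 4.0.16 (quasi-likelihood, robust; R 4.3.3), with Benjamini-Hochberg adjustment and a threshold of 0.05. Standard errors are the fold change over the root of F. Within-library differences used exact permutation over 20 assignments. The text names the members, up to 4 genes per pathway list by p, and genes of a member's locus or complex. It also names pathway list genes lower at an unadjusted p under 0.05, and the 3 genes most like Il1rn and Il1b. On simulated counts for 14883 genes, 38% of 1.5-fold, 78% of 2-fold and 96% of 4-fold changes were recovered, and 8 of 164 calls were false. Genes were drawn independently with equal dispersion in both groups. In the data, chi-square per degree of freedom was 3.67 to 5.34 between mild and 14.2 to 70.0 between severe libraries. The recovered shares therefore do not carry over to these data. Alternatives were other scalings, filters, prior counts, DESeq2 1.42.0, limma-voom (limma 3.58.1) and leaving out each library.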

Additional observations from a re-analysis of the deposited data

How the results depend on the processing

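Il33, Il1rn, Il1r1, Il1b, Il1rl1 and Nlrp3 kept a positive log2 fold change under each of 12 alternatives. With DESeq2 it was 2.14 for Il1rn, 0.91 for Il1r1 and 1.80 for Il33, all past the threshold, as were 3 members, 23 pathway list genes and 1160 genes in all. Without a filter on low counts 146 genes passed, 1 of them from the pathway lists. With library totals as the scaling, which raised the median of all genes by 0.17, 1 gene passed, Il1rap turned to 0.17 and Il18bp to 0.17; RLE scaling left each member's call as it was. Leaving out each library in turn gave 0 to 3269 genes past the threshold, 0 to 6 members and 0 to 53 pathway list genes. The members were 6 without severe library 13 and 2 without 14. The 6 include Il1r2, which met the filter through its severe counts alone. The share of all genes that passed is not given for each fit, so these counts do not set the members apart. Over the same fits the log2 fold change lay between 0.46 and 1.02 for Il1b, 1.55 and 2.496 for Il1rn, 0.60 and 1.08 for Il1r1, 1.47 and 2.01 for Il33, 0.76 and 1.61 for Il1rl1, -0.29 and 0.15 for Il1rap, -0.0988 and 0.24 for Il18, and -0.0999 and 0.11 for Il18bp. Il18bp minus Il18 lay between -0.33 and 0.18. List medians that changed sign lay between -0.0999 and 0.97 for other ligands and binding proteins (2 genes tested with all libraries), -0.0195 and 0.14 for mast cell markers, and -0.0483 and 0.0804 for endothelial markers. The causes of these changes were not tested. No paired analysis was possible because the groups share no replicate numbers. Depth limits Il1a, Il1r2, Il6, Il5 and Il13, which had too few counts for the test over all 6 libraries.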
